A study of Mus musculus with 12 samples.

Results

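The 8 genes described here are the Notch receptors Notch1, Notch2, Notch3 and Notch4 and the ligands Jag1, Jag2, Dll1 and Dll4. They were chosen by symbol, by a rule that uses no measured value, but with earlier results of these data known. They are 8 of the 20620 genes in the deposited count table. RNA was sequenced from mouse aortic valves at postnatal day 10, in 12 libraries that fall into 3 groups of 4: wildtype, Notch1+/-;Gata5+/- and Notch1+/-;Gata5-/-. The names are the labels of the libraries, and both mutant groups carry the Notch1+/- label, so the labels of both genes differ in each comparison with wildtype and only the Gata5 label differs between the mutant groups. Each library is a pool of 3 valves, and the labels give neither the strain nor the part of Notch1 or Gata5 that an allele lacks. The mutant groups are named below by their Gata5 label, as the Gata5+/- and the Gata5-/- groups, and both carry Notch1+/-.

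Notch receptors are single-pass membrane proteins that bind Jagged or Delta-like ligands on a neighbouring cell. Binding lets an ADAM protease and then gamma-secretase cut the receptor, and the freed intracellular domain joins the DNA-binding protein RBPJ and turns on target genes such as those of the Hes and Hey families. In the heart, Notch signalling acts in the endocardium and in the cushions that become valves, and loss of NOTCH1 function is a known cause of bicuspid and calcified aortic valves in people. In vessels, Notch1, Notch4 and Dll4 are known from endothelium, Notch3 from smooth muscle and pericytes, and Jag1 from both layers. Gata5 encodes a GATA-family DNA-binding protein that acts in endocardium.

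The promoters of Notch1 and Jag1, the receptor named in the genotype and the ligand with the highest level, are shown because they differ in GC boxes (GGGCGG on either strand, in capitals). Sequences are from RefSeq on GRCm38.p6, minus strand for both genes, and end at the base before the gene start. Notch1 lies at chr2:26503823-26504072 and Jag1 at chr2:137116521-137116770.
Notch1: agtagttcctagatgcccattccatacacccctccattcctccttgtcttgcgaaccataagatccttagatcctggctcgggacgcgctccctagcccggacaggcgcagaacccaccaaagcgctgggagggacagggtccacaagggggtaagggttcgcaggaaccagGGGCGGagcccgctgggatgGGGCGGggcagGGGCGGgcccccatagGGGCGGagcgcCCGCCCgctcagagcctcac
Jag1: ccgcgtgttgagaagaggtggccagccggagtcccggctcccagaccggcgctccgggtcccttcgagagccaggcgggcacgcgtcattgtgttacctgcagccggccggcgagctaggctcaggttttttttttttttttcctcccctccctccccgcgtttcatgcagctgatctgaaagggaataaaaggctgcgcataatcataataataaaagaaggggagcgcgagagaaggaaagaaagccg
In the 300 bases around each gene start (250 before and 50 after), the Notch1 promoter held 5 GC boxes and the Jag1 promoter none. RefSeq gave 9 promoters for the 8 genes, with 2 for Dll1, on chromosomes 2, 3, 12 and 17. A GC box was found in 5 of the 9 (Notch1, Notch2, Notch3, Jag2 and Dll4), against 35.7% of all 32851 promoters of that length. The RBPJ-type word GTGGGAA was found in 0 of the 9, against 6.38% of all promoters, and the GATA-type words AGATAA and TGATAA in 0 of the 9, against 18.6%. Each word was searched on both strands as exact letters, overlapping matches were counted, and a match is a description of letters and not a bound site.

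Totals ran from 13866604 to 25059653 counts per library. Of the 12 libraries, 2 stood apart: 6000 genes were at 0 in Gata5-/- replicate 3 and 3208 in wildtype replicate 2, against 1017 to 2908 elsewhere, and their mean Spearman correlations with the other libraries were 0.891 and 0.923 against 0.930 to 0.947. Gata5 held 18 to 56 counts in wildtype and 0 in all 4 Gata5-/- libraries. It held 97 to 112 counts in 3 of the Gata5+/- libraries and 15 in replicate 4, or 4.94 to 5.66 and 0.728 CPM (counts scaled by TMM to a common library total) against 0.845 to 2.91 CPM in wildtype. Those 3 libraries were thus above every wildtype library and replicate 4 below every one, so Gata5 RNA did not follow the label of 1 lost copy, and the part of the gene that the allele lacks is not given. All 10 endothelial markers were detected, with summed levels of 867 to 1087 CPM in wildtype, 873 to 1220 in the Gata5+/- group and 838 to 1282 in the Gata5-/- group, and so were all 8 fibroblast markers, at 26080 CPM or more. All 8 cardiomyocyte markers were detected too, between 23280 CPM in wildtype replicate 2 and 54070 CPM in Gata5+/- replicate 4. In bulk tissue, fewer cells of a type and less RNA per cell cannot be told apart.

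All 8 genes passed the filter on low counts and were detected in every library. Per kilobase of the longest coding transcript, the mean level over 12 libraries was highest for Notch3 at 27.5 CPM per kb, followed by Notch2 at 23.1. Notch3 was above Notch2 in 10 of 12 libraries, although their ranges overlapped. Notch1 stood at 17 CPM per kb, below Notch2 in 11 of 12 libraries. Jag1, at 16.8, was the ligand with the highest level, and it could not be ordered against Notch1, which was above it in 6 of 12 libraries. With all annotated exons as the length, Notch1 was above Jag1 in only 2 libraries. A gap followed: Jag1 exceeded Notch4, at 4.60 CPM per kb, in 12 of 12 libraries with no overlap of the ranges. Dll1 stood at 3.64, Jag2 at 3.54 and Dll4 at 2.99 CPM per kb, with Notch4 above Dll1 in 11 of 12 libraries, Dll1 above Jag2 in 6 and Jag2 above Dll4 in 8, and these 3 ligands overlapped one another in wildtype.

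**Figure D1:**
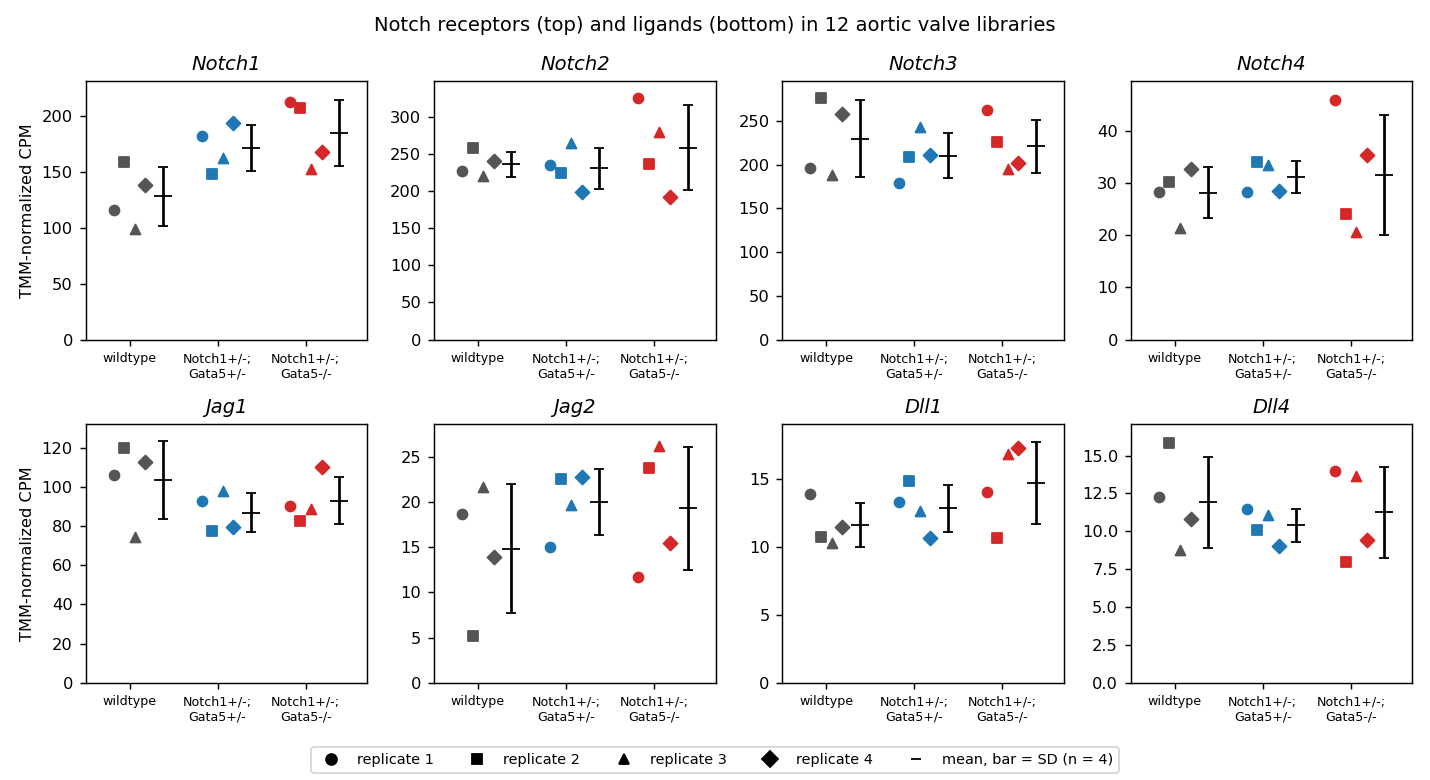
Level of each of the 8 genes in each library (TMM-normalized CPM, linear axis from 0); each point is 1 pool of 3 valves, the marker shape gives the replicate number, and the bar beside each group is the mean with its SD (n = 4). Notch1 sits at 98.6 to 159 CPM in wildtype and at 148 to 213 CPM in the 8 Notch1+/- libraries, while the groups of the other 7 genes lie over one another.

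Notch1 (ENSMUSG00000026923) is the receptor whose gene the labels name as mutated. Its level in the wildtype replicates 1 to 4 was 116, 159, 98.6 and 139 CPM. In the Gata5+/- group it was 182, 148, 162 and 194 CPM. In the Gata5-/- group it was 213, 207, 153 and 168 CPM. Thus the Notch1+/- libraries did not hold less Notch1 RNA than wildtype: 6 of the 8 were above the highest wildtype library, and 1 library of each mutant group was below it. Since the part of the gene that the allele lacks is not given, a count over the whole gene does not check this genotype.

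Against wildtype, Notch1 had a log2 fold change of 0.53 (SE 0.15, 95% interval 0.22 to 0.84) in the Gata5-/- group, which did not pass edgeR's quasi-likelihood test after Benjamini-Hochberg adjustment over 19346 genes (adjusted p = 0.582; unadjusted 0.00184). In the Gata5+/- group the log2 fold change was 0.42 (SE 0.15, 95% interval 0.11 to 0.73; edgeR adjusted p = 1, unadjusted 0.0104). With both Notch1+/- groups together it was 0.48 (SE 0.13, 95% interval 0.20 to 0.75; edgeR adjusted p = 0.981, unadjusted 0.00157). The 2 Notch1+/- groups differed by 0.11 (SE 0.15, 95% interval -0.20 to 0.42; edgeR unadjusted p = 0.476). In a two-sided exact permutation test on mean log2 CPM, p was 0.0571 for each mutant group against wildtype, where 70 splits allow no p under 0.0286, and 0.00808 for both groups together over 495 splits. These permutation p-values are unadjusted, and 32 were computed over the 8 genes. Of the alternatives run, DESeq2 alone called Notch1 for both groups together, at a log2 fold change of 0.48 (adjusted p = 0.0493, against 0.0493 to 1 over the alternatives). That p was adjusted over the 1431 genes that DESeq2 kept in this comparison, against 20458 in its others, so it is not on the scale of edgeR's.

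Without wildtype replicate 2 and Gata5-/- replicate 3, the libraries that stand apart, Notch1 in the Gata5-/- group had a log2 fold change of 0.74. The edgeR adjusted p was then 0.107 (0.107 to 0.9999 over the alternatives). Wildtype replicate 2 held the highest Notch1 level of its group (159 CPM) and Gata5-/- replicate 3 the lowest of its own (153 CPM). Leaving both out was thus bound to raise the difference, and the rise is no added evidence. In the authors' deposited table, whose unnamed comparison matched the Gata5-/- group against wildtype, Notch1 has a log2 fold change of 0.56 and an adjusted p of 0.151, and all 8 genes are marked "Not significant". The gene 0610009E02Rik overlaps Notch1 on the opposite strand, with 9 to 152 counts of its own, and since the strand setting is unknown, reads from it and from Notch1 cannot be told apart where they overlap. The summed endothelial markers overlapped between all groups (values above), and over the 12 libraries Notch1 had r = 0.20 with them (rho = 0.10, permutation p = 0.55, adjusted over 104 relations 0.841; r = -0.03 without the 2 farthest libraries). For marker sums, the 2 farthest libraries are those farthest from the median of the sum. The summed smooth muscle markers had a lower median in both mutant groups, with an overlap between Gata5+/- and wildtype (values below, with Notch3). With that sum Notch1 had r = -0.50 (rho = -0.64, permutation p = 0.0936, adjusted over 104 relations 0.512, r = -0.36 without the 2 farthest). It had r = 0.34 with that sum after the group means were removed. The marker sum with the highest r with Notch1, of the 13 examined, was that of 6 Schwann cell and melanocyte markers, all detected, at r = 0.61 (rho = 0.52, permutation p = 0.0358, adjusted over 104 relations 0.484; r = 0.74 without the 2 farthest). After the group means were removed r was 0.495. That sum was 53.6 to 88 CPM in wildtype (median 54.4), 68.3 to 82.1 in the Gata5+/- group (median 75.1) and 44.4 to 118.7 in the Gata5-/- group (median 86.0), with overlapping ranges. Wildtype replicate 2 held both the highest Notch1 level and the highest of these sums in its group. With group means removed, the macrophage and fibroblast sums had an r larger in size than 0.495, at -0.62 and 0.60. Over the 12 libraries these 2 sums had r = -0.39 and 0.45 with Notch1 (permutation p adjusted over 104 relations 0.711 and 0.566). Their part in the Notch1 values was not tested.

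**Figure D2:**
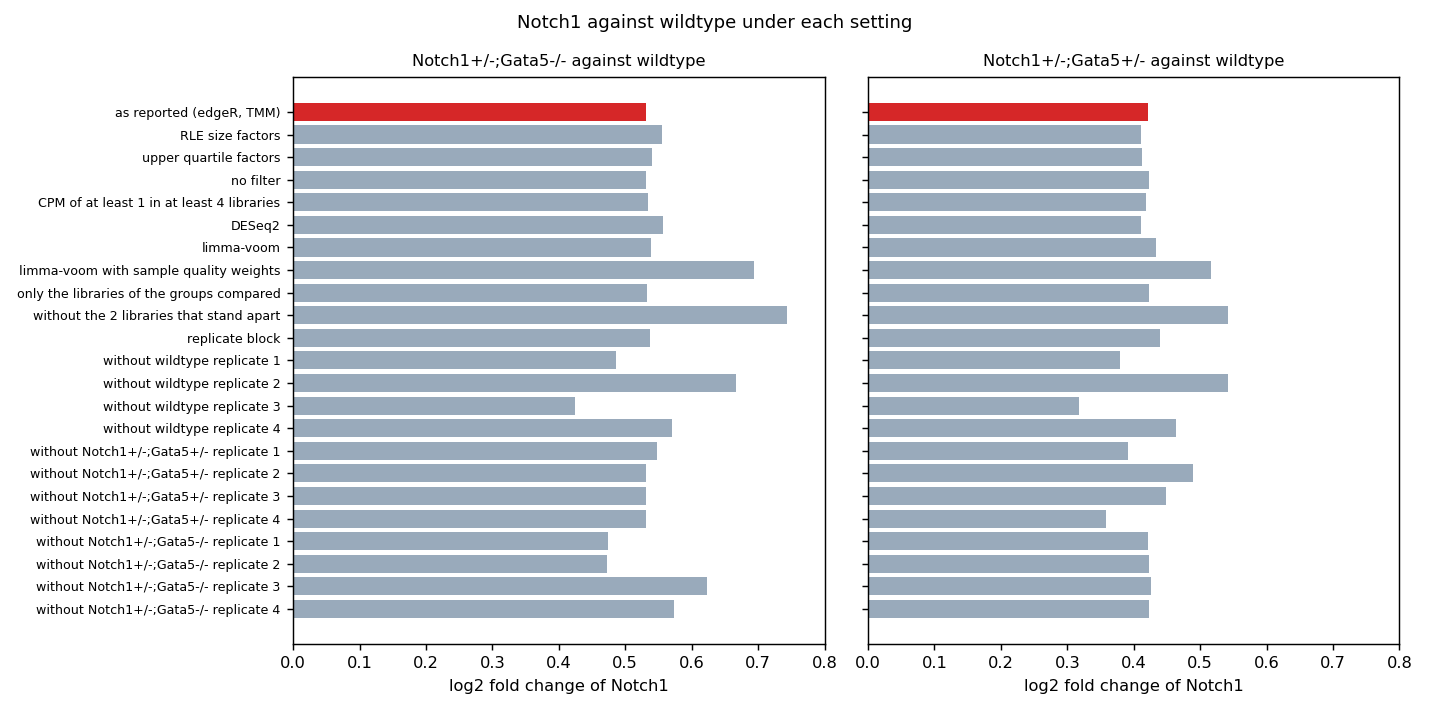
Log2 fold change of Notch1 against wildtype (linear axis from 0) in Notch1+/-;Gata5-/- (left) and Notch1+/-;Gata5+/- (right), as reported (red bar) and under each other setting or with 1 library left out (grey bars). All bars are above 0, from 0.42 to 0.74 on the left and from 0.32 to 0.54 on the right.

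Notch2 (ENSMUSG00000027878), a receptor expressed in many mesenchymal tissues, overlapped between groups, at 237 ± 17 CPM in wildtype (SD, n = 4), 231 ± 27.9 in the Gata5+/- group and 259 ± 57.0 in the Gata5-/- group. The 4 Gata5-/- libraries were spread most, at 326, 237, 280 and 193 CPM, and held both the highest and the lowest of all 12 values. The log2 fold change was 0.13 (95% interval -0.16 to 0.42) in the Gata5-/- group and -0.03 (95% interval -0.33 to 0.26) in the Gata5+/- group. The first ran from 0.02 without Gata5-/- replicate 1 to 0.25 without Gata5-/- replicate 4. Gm42819 and Gm42820 overlap Notch2 on the same strand and held 183 to 562 and 70 to 243 counts.

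Notch3 (ENSMUSG00000038146), known from mural cells, was measured at 197, 277, 189 and 258 CPM in wildtype. It was at 179, 208, 243 and 211 CPM in the Gata5+/- group and at 262, 226, 195 and 202 CPM in the Gata5-/- group. The groups overlapped, and the log2 fold changes against wildtype were -0.06 (95% interval -0.35 to 0.24) in the Gata5-/- group and -0.13 (95% interval -0.42 to 0.17) in the Gata5+/- group. The sign of the first turned without wildtype replicate 2 (0.06). The sum of 7 smooth muscle markers was 5092 to 6905 CPM in wildtype, 4747 to 5156 in the Gata5+/- group and 3500 to 4640 in the Gata5-/- group. The medians were 6285, 4908 and 3686 CPM in that order. The Gata5+/- range overlapped that of wildtype, and the Gata5-/- range lay below both. Over the 12 libraries Notch3 had r = 0.23 with that sum (rho = 0.15, permutation p = 0.481, adjusted over 104 relations 0.841; r = 0.37 without the 2 farthest libraries). The part of the smooth muscle difference in the Notch3 values was not tested.

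Notch4 (ENSMUSG00000015468), known from endothelium, was at 28.2 ± 4.85 CPM in wildtype, 31.2 ± 3.08 in the Gata5+/- group and 31.6 ± 11.5 in the Gata5-/- group (SD, n = 4). Its values in the last group ran from 20.7 to 46.0 CPM, which spans those of every other library. The log2 fold changes against wildtype were 0.16 (95% interval -0.32 to 0.65) and 0.14 (95% interval -0.34 to 0.62) in the Gata5-/- group and the Gata5+/- group. The first ran from -0.06 without Gata5-/- replicate 1 to 0.33 without Gata5-/- replicate 3, and the second from 0.03 without wildtype replicate 3 to 0.22 without wildtype replicate 4.

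**Figure D3:**
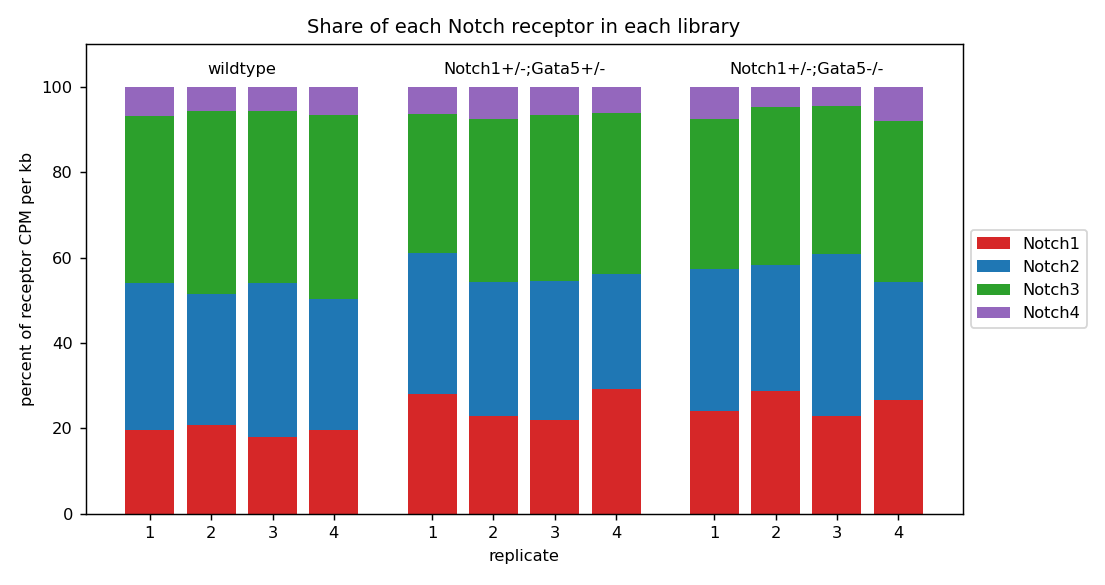
Share of each receptor in the summed receptor level (CPM per kb of coding transcript) in each library, in percent, as stacked bars that add up to 100; the x axis gives the replicate number within each group. The Notch1 segment takes 17.9 to 20.8% in wildtype and 22.0 to 29.2% in the 8 Notch1+/- libraries.

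As a share of the 4 receptors per kb, Notch1 took 19.5, 20.8, 17.9 and 19.6% in the wildtype libraries. It took 28.1, 22.9, 22.0 and 29.2% in the Gata5+/- group and 24.1, 28.7, 22.9 and 26.6% in the Gata5-/- group. Every wildtype library was thus below every Notch1+/- library, a description that carries no test, since the share was picked with the values known. How often such shares lie apart for other genes was not examined. The groups also did not overlap with all exons as the length (13 to 15.3% in wildtype against 16.2 to 22.1% and 16.9 to 21.6%) or without a length (18.6 to 22.0% against 23.0 to 30.7% and 23.5 to 29.9%). These scales use the same counts and differ only in a fixed length per gene, so they are not independent. The share of Notch3 lay the other way, at 39.1 to 43.0% in wildtype, 32.7 to 38.9% in the Gata5+/- group and 34.6 to 37.8% in the Gata5-/- group, and shares that add up to 100 cannot move independently. The shares of Notch2 and Notch4 overlapped between groups. The summed receptor level itself was 69.0 ± 10.4 CPM per kb in wildtype, 71.1 ± 4.55 in the Gata5+/- group and 76.5 ± 11.7 in the Gata5-/- group (SD, n = 4), with overlapping ranges.

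Jag1 (ENSMUSG00000027276), the Jagged ligand of endothelium and smooth muscle, was at 106, 120, 74.7 and 113 CPM in wildtype. It was at 92.7, 77.5, 97.9 and 79.5 CPM in the Gata5+/- group and at 90.3, 82.5, 89.0 and 110 CPM in the Gata5-/- group. In wildtype 3 libraries were at or above 106 CPM, but replicate 3 was the lowest of all 12, and the groups overlapped. The log2 fold changes were -0.15 (95% interval -0.47 to 0.17) in the Gata5-/- group and -0.25 (95% interval -0.57 to 0.07) in the Gata5+/- group (edgeR unadjusted p = 0.336 and 0.119). The first ran from -0.28 without wildtype replicate 3 to -0.06 without wildtype replicate 2, and 4 libraries each moved it by over 1.5 times when left out. Jag1 made up 66.0 ± 6.11% of the 4 ligands per kb in wildtype, 60.0 ± 3.72% in the Gata5+/- group and 60.3 ± 4.73% in the Gata5-/- group (SD, n = 4).

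Jag2 (ENSMUSG00000002799), the second Jagged ligand, was the most variable member, with a coefficient of variation of 33.2% over the 12 libraries. In wildtype it was at 18.7, 5.21, 21.7 and 13.9 CPM. In the Gata5+/- group it was at 15.0, 22.6, 19.7 and 22.8 CPM, and in the Gata5-/- group at 11.8, 23.8, 26.2 and 15.5 CPM. The lowest value was that of wildtype replicate 2, a library that stands apart and held the lowest cardiomyocyte marker sum. The log2 fold change in the Gata5-/- group was 0.38 (95% interval -0.34 to 1.09), 0.11 without wildtype replicate 2, and -0.08 without both libraries that stand apart. Without wildtype replicate 3 it was 0.61. In the Gata5+/- group it was 0.43 (95% interval -0.29 to 1.15), 0.15 without wildtype replicate 2 and 0.67 without wildtype replicate 3.

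Dll1 (ENSMUSG00000014773), a Delta-like ligand best known from somite and neural development, was at 11.6 ± 1.60 CPM in wildtype, 12.8 ± 1.73 in the Gata5+/- group and 14.7 ± 3.03 in the Gata5-/- group (SD, n = 4). The 2 highest of the 12 values, 16.8 and 17.3 CPM, were in Gata5-/- replicates 3 and 4, and replicate 2 of that group was among the lowest, at 10.7 CPM. The log2 fold change against wildtype was 0.34 (95% interval -0.26 to 0.95) in the Gata5-/- group and 0.15 (95% interval -0.46 to 0.75) in the Gata5+/- group. The latter ran from 0.07 without Gata5+/- replicate 2 to 0.24 without wildtype replicate 1.

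Dll4 (ENSMUSG00000027314), the Delta-like ligand of arterial and sprouting endothelium, was at 12.3, 15.9, 8.74 and 10.8 CPM in wildtype. It was at 11.5, 10.1, 11.1 and 9.03 CPM in the Gata5+/- group and at 14.0, 7.97, 13.6 and 9.42 CPM in the Gata5-/- group. Groups overlapped, with log2 fold changes against wildtype of -0.08 (95% interval -0.76 to 0.60) in the Gata5-/- group and -0.20 (95% interval -0.88 to 0.48) in the Gata5+/- group. Without wildtype replicate 2 these were 0.10 and -0.03, and without wildtype replicate 3 they were -0.21 and -0.32. Gm14207 overlaps Dll4 on the opposite strand, with 0 to 70 counts, and Gm17276 overlaps Notch3 in the same way, with 31 to 275.

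**Figure D4:**
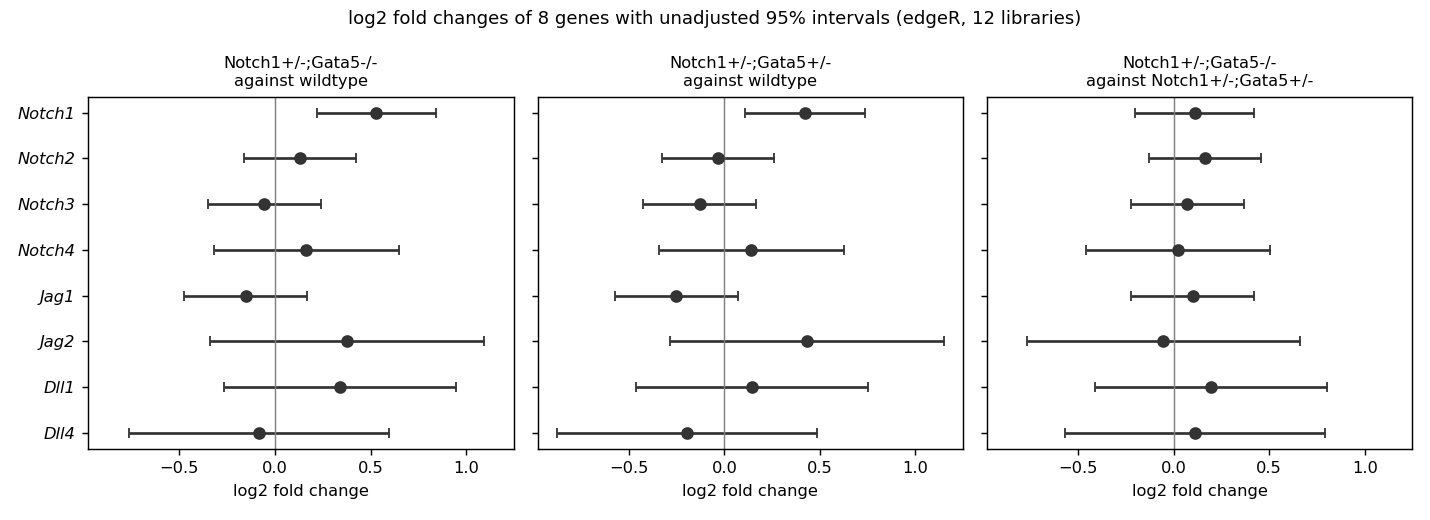
Log2 fold change of each of the 8 genes with its unadjusted 95% interval (edgeR, all 12 libraries) in 3 comparisons of groups; the vertical line marks 0. The interval of Notch1 lies above 0 in both comparisons with wildtype, and all 8 intervals cross 0 between the Notch1+/- groups.

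Taking the 8 genes in turn, edgeR called 0 of 8 at an adjusted p under 0.05 in the Gata5-/- group against wildtype, where 0.0258% of all genes tested were called. It called 0 of 8 in the Gata5+/- group against wildtype and 0 of 8 between the Notch1+/- groups, where the share over all genes was 0% in each, and 0 of 8 for both groups together, where it was 0.00517%. At an unadjusted p under 0.05 the count was 1 of 8 (Notch1) in the Gata5-/- group against wildtype (5.4% of all genes), 1 of 8 (Notch1) in the Gata5+/- group (1.25%), 0 of 8 between the mutant groups (3.18%) and 1 of 8 (Notch1) for both together (3.17%). For 0 of 8 genes did the groups lie apart without overlap in any comparison, which held for 2.93, 2.24, 2.73 and 0.326% of all genes in that order. A log2 fold change above 0 was found for 5, 4, 7 and 5 of the 8 genes in the same order, beside 46.1, 50.3, 44.5 and 46.6% of all genes. The median log2 fold change of the 8 was 0.15 in the Gata5-/- group against wildtype beside -0.04 over all genes. It was 0.06 beside 0.00 in the Gata5+/- group against wildtype, 0.10 beside -0.04 between the Notch1+/- groups, and 0.10 beside -0.02 for both together. DESeq2 called Notch1 for both together, where it gave an adjusted p for 1431 genes, 3 of the 8 among them, and called 1.61% of them (23 genes). It called 0 of 8 in the 3 other comparisons, in the order above, where it called 0.235, 0.0391 and 0.0342% of 20458 genes. With limma-voom 0 of 8 were called in all 4 comparisons, beside 0.031, 0, 0 and 0.0207% of all genes. The comparisons with wildtype share the wildtype libraries.

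The other genes of the pathway were taken as 41 genes in 8 lists, of which 39 were tested. Dll3, a ligand-like inhibitor, and the target Hes5 did not pass the filter. None of the 39 was called in any comparison (edgeR, adjusted p under 0.05; the shares over all genes are given above), and 18 had a log2 fold change above 0 in the Gata5-/- group against wildtype beside 20 in the Gata5+/- group. At an unadjusted p under 0.05, 1 of 39 was found in each comparison, beside 5.4, 1.25, 3.18 and 3.17% of all genes, and a count of 1 is too small to set the list apart from these shares. Under the alternatives other than leaving out 1 library it was 0 to 3 in each mutant group against wildtype, 0 to 2 between the mutant groups and 1 for both together. The unadjusted p behind the count in the Gata5+/- group was 0.0495, and the count was 0 there with RLE factors, upper quartile factors, the stricter filter, DESeq2, limma-voom and the replicate block. The gene counted in each comparison with wildtype was Lfng, a fringe glycosyltransferase that adds sugar to Notch and so changes which ligands it answers to. Lfng was at 5.41 ± 1.90 CPM in wildtype, 10.1 ± 2.55 in the Gata5+/- group and 10.8 ± 4.54 in the Gata5-/- group (SD, n = 4). Its log2 fold change was 0.998 (SE 0.44, edgeR adjusted p = 0.870) in the Gata5-/- group and 0.90 (SE 0.44, adjusted p = 1) in the Gata5+/- group. Both mutant ranges overlapped that of wildtype, which reached 7.23 CPM. The lowest Gata5+/- library was at 6.82 CPM and the lowest Gata5-/- library at 4.02. Between the Notch1+/- groups the gene was Aph1b, a gamma-secretase subunit, at 0.63 (SE 0.30, edgeR adjusted p = 1).

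Mfng, a second fringe enzyme, was at 2.68 ± 1.16 CPM in wildtype, 3.53 ± 0.916 in the Gata5+/- group and 6.46 ± 2.28 in the Gata5-/- group (SD, n = 4). Its log2 fold change of 1.27 (SE 0.63) in the last group had an edgeR adjusted p of 0.953, and it was 0.40 (SE 0.63) in the Gata5+/- group. Among ligands of other classes, Dlk2, a non-canonical ligand, was at most 2.32 CPM in every library and at 0 in several, and Dlk1 had a log2 fold change of 0.03 (SE 0.49) in the Gata5-/- group and -0.12 (SE 0.49) in the Gata5+/- group. The ubiquitin ligases that drive ligand uptake, Mib1 and Mib2, had log2 fold changes of -0.13 (SE 0.11) and 0.18 (SE 0.17) in the Gata5-/- group, and of 0.07 (SE 0.11) and -0.08 (SE 0.17) in the Gata5+/- group. The receptor proteases Furin and Adam17 had -0.05 (SE 0.15) and 0.11 (SE 0.16) in the Gata5-/- group, and 0.22 (SE 0.15) and 0.13 (SE 0.16) in the Gata5+/- group. None of these passed the test.

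Of 7 gamma-secretase genes, which release the intracellular domain, Psen2 had a log2 fold change of -0.57 (SE 0.31) and Aph1c of 1.36 (SE 1.08) in the Gata5-/- group. The latter turned to -0.19 without Gata5-/- replicate 3. The values in the Gata5+/- group were -0.04 (SE 0.31) and 0.23 (SE 1.06). In the nuclear complex, the co-activator Maml2 had 0.36 (SE 0.23) in the Gata5-/- group and 0.07 (SE 0.23) in the Gata5+/- group. Of the genes of turnover and inhibition, Dtx1, a Notch-binding ubiquitin ligase, had -0.96 (SE 0.53) and Numb, an endocytic inhibitor, -0.28 (SE 0.16) in the Gata5-/- group, and they had -0.32 (SE 0.53) and -0.18 (SE 0.16) in the Gata5+/- group.

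Target genes are those that the RBPJ complex is known to switch on. Heyl, at 159 ± 27.1 CPM in wildtype, was at 146 ± 21.0 in the Gata5+/- group and 155 ± 30.9 in the Gata5-/- group (SD, n = 4). Hey1 was at 14.8 ± 3.09, 12.6 ± 3.56 and 14.0 ± 6.96 CPM in that order. All 4 targets tested had a log2 fold change under 0 in the Gata5+/- group against wildtype and 3 of 4 in the Gata5-/- group. The medians were -0.10 and -0.06, and none was called. Of all genes, 50.3 and 46.1% were above 0 in these comparisons, and 4 genes are too few to set the list apart. In the nuclear complex list, 7 of 7 and 5 of 7 genes were above 0 in the same order.

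**Figure D5:**
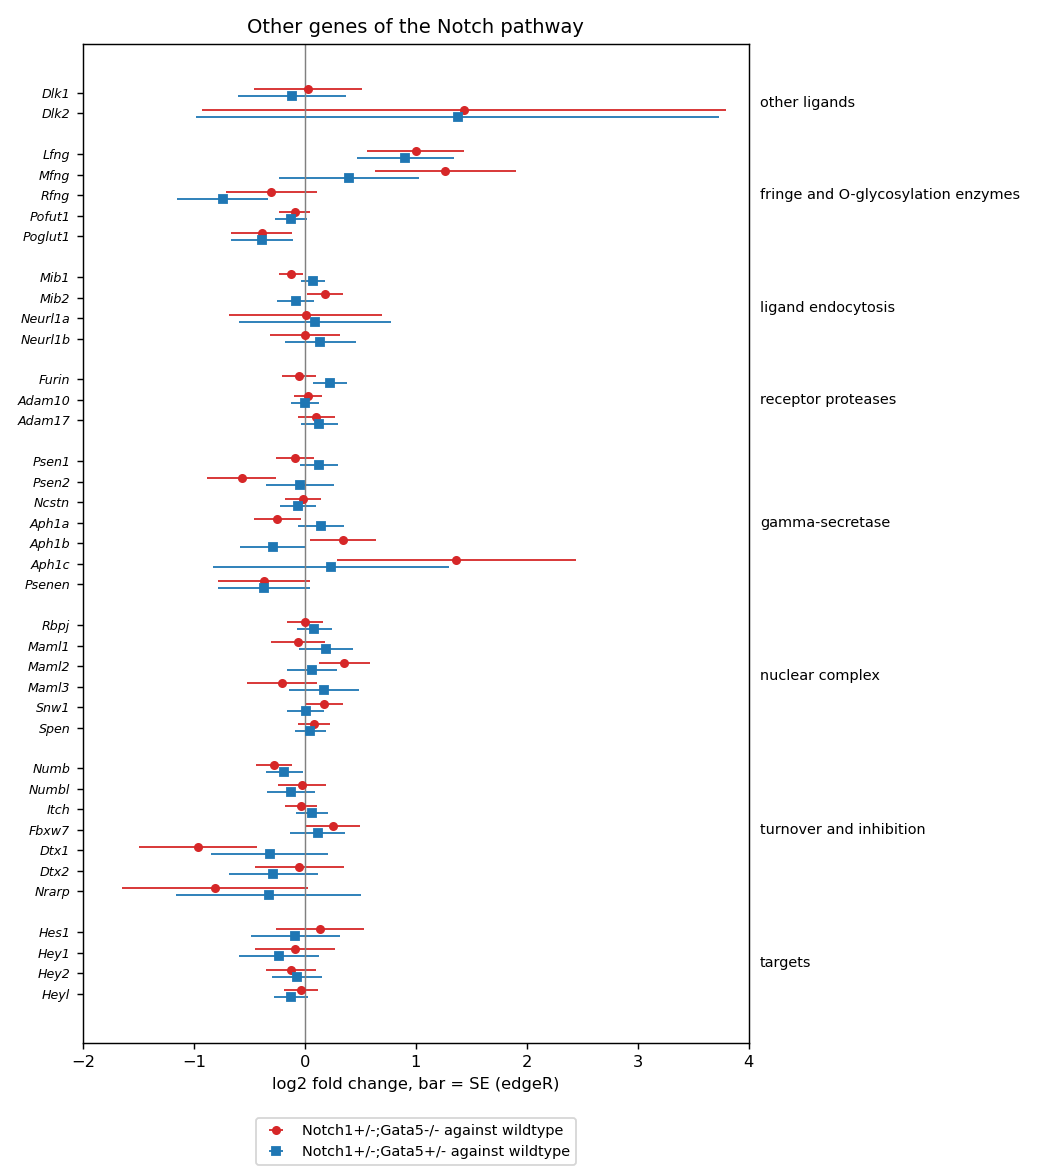
Log2 fold change (x axis) of 38 other pathway genes (y axis, by list) against wildtype in the Gata5-/- group (circles) and the Gata5+/- group (squares); bars are the SE from edgeR. Of the 38 genes 17 circles and 19 squares lie above 0, and the points beyond 1 (Dlk2, Mfng and Aph1c) have bars of 0.63 or more.

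Across the 12 libraries, 28 pairs of the 8 genes were compared on log2 CPM, and none passed a Benjamini-Hochberg adjustment (lowest 0.13 for r and 0.262 for rho). Jag1 and Jag2 had r = -0.70 (rho = -0.71, permutation p = 0.00501 for r), which became -0.49 without the 2 libraries farthest from the median of Jag1, and the lowest Jag2 value is that of wildtype replicate 2, without which r was -0.58. Notch2 and Dll4 had r = 0.69 (rho = 0.68, permutation p = 0.0131 for r) and r = 0.64 without the 2 farthest. Against 13 marker sums, in 104 relations, the lowest adjusted permutation p was 0.246 for r and 0.24 for rho. In these relations the 2 farthest libraries are those farthest from the median of the marker sum. Dll4 had r = -0.76 with the cardiomyocyte sum (rho = -0.77, permutation p = 0.00254 for r, r = -0.83 without the 2 farthest), and r = -0.76 also after the group means were removed. Jag2 had r = 0.72 with the same sum (rho = 0.46, permutation p = 0.0158 for r), which fell to 0.18 without the 2 farthest libraries, so that relation rested on them. Notch3 had r = 0.74 with the fibroblast sum (rho = 0.65, permutation p = 0.00474 for r, r = 0.65 without the 2 farthest). With that sum Jag2 had r = -0.605 (rho = -0.748, permutation p = 0.0419 for r, r = -0.725 without the 2 farthest). Jag1 had r = 0.559 with it (rho = 0.755, permutation p = 0.0604 for r, r = 0.453 without the 2 farthest). For both Jagged ligands the adjusted permutation p for rho was 0.24.

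The genes whose log2 CPM was most like each member over the 12 libraries, among 9720 candidates, are given as a description, since each is the highest of many. For Notch1 they were Ptk7, a planar cell polarity receptor (r = 0.90), Rai14 (0.89) and Drp2 (0.89). For Notch2 they were Aopep (0.89), Zfp598 (0.89) and Clic1 (0.89), for Notch3 Tubgcp2 (0.87), Agrn (0.86) and Ltbp4 (0.86), and for Notch4 Csnk1g1 (0.88), Ifit2 (0.88) and Rad54l2 (0.88). For Jag1 they were Dtl (0.82), Brip1 (0.81) and Itga4 (0.81), and for Jag2 Ogfrl1 (0.97), Plekhb2 (0.93) and Pals2 (0.93). For Dll1 they were Gdf10 (0.89), Mapk3 (0.87) and the endothelial adhesion gene Esam (0.84), and for Dll4 Smarcb1 (0.89), Smad3 (0.89) and Clic1 (0.89).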

How the data were processed

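RNA was sequenced from 12 aortic valve pools. Per the labels' protocols, messenger RNA was selected with poly-T beads, and the text describes directional and non-directional libraries. Per the submitters' processing notes, Trim Galore, STAR 2.7.10b, DESeq2 1.34.0 and the build GRCm39 were used. How reads were counted, with which annotation and strand, is not given in the sources used here. Raw counts per gene and library were deposited by the authors. Their second deposited table holds p-values, log2 fold changes, a normalized mean (a signal), and an SE and a test statistic (scores). It does not say which groups it compares, but its log2 fold changes differed by at most 0.000166 from a DESeq2 refit of the Gata5-/- group against wildtype over 13959 genes, against 8.65 and 6.44 for the other pairs of groups.

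It also gave 13959 gene symbols, a list of gene names gave 6077 more, and 584 identifiers had none. In edgeR 4.0.16 under R 4.3.3, filterByExpr kept 19346 genes (1274 were removed), TMM set the scaling, and 1 robust quasi-likelihood model, with group as its only term, covered the 12 libraries. The common biological coefficient of variation was 0.68. Calls required a Benjamini-Hochberg p under 0.05, adjusted over the whole table. The SE is the log2 fold change divided by the square root of F, and 95% intervals are unadjusted. Exact permutation tests used log2 CPM with a prior count of 2. Levels per kb used the longest coding transcript of an annotation of the older build GRCm38, which gave lengths and overlaps only. A count of 0 could hide up to 3 counts, or 0.120 to 0.216 CPM per library, and this covers counting error only. Labels call each pool of 3 valves a biological replicate, and p-values measure the spread between pools.

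The members and lists were chosen with earlier results of these data known. Named are all members, the 2 genes of each pathway list with the smallest unadjusted p against wildtype, the 3 genes most correlated with each member (no provisional names, mean log2 CPM of at least 3) and Gata5; Aph1b and the overlapping genes were named after their values were seen. 1 gene that this rule names is not reported here. Alternatives were other size factors and filters, DESeq2 1.42.0, limma 3.58.1 voom, only the groups compared, a replicate block and each library left out. The code was tested on simulated data.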

Additional observations from a re-analysis of the deposited data

Results flagged for a closer look

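Gata5 was at 0.728 CPM (15 counts) in Gata5+/- replicate 4, against 4.94 to 5.66 CPM in the other 3 libraries of that group, so this library lay far from the rest by Dixon's test. Replicate 4 lay next to wildtype, at 0.845 to 2.91 CPM, and the other 3 libraries lay above every wildtype library, so Gata5 RNA did not follow the label of 1 lost copy, and the part of the gene that the allele lacks is not given. The value of replicate 4 was the only such one among 27 groups of 4 examined for the 8 members and Gata5, and chance gives about 1 in 20. The Notch1 level of that library was 194 CPM, the highest of its group.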

How the results depend on the processing

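The 8 genes gave 696 values under the alternatives, and the sign was kept in 667 and changed in 29, and 1 was called. That call was Notch1 for both Notch1+/- groups against wildtype with DESeq2 (log2 fold change 0.48, adjusted p = 0.0493), which makes 1 member called in place of 0. The adjustment there covered only 1431 genes. Notch1 stayed above 0 against wildtype under every alternative run, from 0.42 to 0.74 in the Gata5-/- group and from 0.32 to 0.54 in the Gata5+/- group, and no setting but DESeq2 called it. The Notch1 share of the receptors was 6.10 points higher in both Notch1+/- groups together than in wildtype. It was 4.89 points higher with all exons, 6.25 without length and 5.57 to 6.61 with 1 library left out. The share and its scales were chosen after seeing the data.

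The count of genes called in the Gata5-/- group against wildtype was 5 in the analysis as reported, 48 with DESeq2, 0 with only the libraries of the groups compared, 2 without the 2 libraries that stand apart, and 2 to 21 with 1 library left out (2 without wildtype replicate 2, 21 without Gata5-/- replicate 4). In the Gata5+/- group against wildtype it was 0, 8 with DESeq2 and 0 to 0 with 1 library left out. Between the Notch1+/- groups it was 0, 7 with DESeq2, 2 without the 2 libraries that stand apart and 0 to 1 with 1 left out. For both groups together it was 1, 4 with RLE, with upper quartile factors and with voom with or without sample quality weights, 23 with DESeq2, 2 without the 2 libraries that stand apart, and 0 to 9 with 1 left out (0 without wildtype replicate 4, 9 without Gata5-/- replicate 4).

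Libraries that share a replicate number had correlated deviations of -0.055 to 0.328, above 0.1 for number 4 only. The pairs of replicate 4 had 0.328, 0.236 and 0.211, the highest of all pairs between groups, where the next was 0.193. Not every library correlated best with its own number, so the numbers were not taken to pair the samples. What the replicate 4 libraries share was not tested. With the replicate block, 5 genes were called for both groups together, Notch4 between the Notch1+/- groups went to -0.038, and no member was called. With voom, Aph1c in the Gata5-/- group against wildtype went to -0.99. With voom and quality weights Aph1c went to -1.59 and Notch3 to 0.087 in the Gata5-/- group against wildtype, Notch2 to 0.028 in the Gata5+/- group against wildtype, Dll4 to -0.022 between the Notch1+/- groups, and Notch3 to 0.035 for both together. Without the 2 libraries that stand apart, Aph1c went to -0.22, Notch3 to 0.11 and Jag2 to -0.083 in the Gata5-/- group against wildtype, Notch2 to 0.012 in the Gata5+/- group against wildtype and Notch3 to 0.040 for both together. With 1 library left out, the log2 fold changes in the Gata5-/- group against wildtype ran from -0.14 to 0.060 for Notch3, -0.061 to 0.33 for Notch4, -0.21 to 0.10 for Dll4, -0.19 to 1.81 for Aph1c and -0.26 to 6.58 for Dlk2. In the Gata5+/- group against wildtype they ran from -0.10 to 0.036 for Notch2, -0.22 to 0.0029 for Heyl and -0.50 to 0.15 for Dlk1. Between the Notch1+/- groups they ran from -0.20 to 0.18 for Notch4, -0.23 to 0.14 for Jag2 and -0.0036 to 0.15 for Notch3, and for both together from -0.0051 to 0.11 for Notch2, -0.18 to 0.016 for Notch3 and -0.26 to 0.036 for Dll4. None of these passed the test, and the cause was not tested.

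The unadjusted 95% intervals were widest for Jag2 and Dll4 among the members, from -0.34 to 1.09 and from -0.76 to 0.60 in the Gata5-/- group against wildtype.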
